A study of Sus scrofa with 8 samples.

Results

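The genes described here encode the enzymes that build fatty acids and the first step of glycerolipid assembly, together with the transcription factor that drives them: SCD, ELOVL6, FASN, ACACA, ACLY, ME1, GPAM and SREBF1. Their probe sets were found by gene symbol, keeping only probe sets whose platform annotation gives exactly 1 symbol. Of the 8 genes, 7 had such a probe set, and ACLY, which makes cytosolic acetyl-CoA from citrate, was passed over because none carried its symbol alone. The 7 genes were read by 17 of the 24123 probe sets of the array. The genes were chosen on their signals in these same arrays, that is on their breed difference and their wide spread between animals, so those values are given as a description.

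The study compared gene expression in longissimus dorsi, a muscle running along the spine, sampled between the 7th and 9th ribs, between Korean native pigs aged 7 months and Yorkshire pigs aged 6 months, with 4 animals of each breed and 1 array per animal. The labels state that the pigs were kept under the same conditions. Age differs with breed, and effects of age and of breed cannot be told apart. Each array reports a signal, a linear intensity per probe set that had been scaled to a common mean per array, so a value is relative to the rest of its own array.

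De novo lipogenesis starts from acetyl-CoA, which acetyl-CoA carboxylase (ACACA) turns into malonyl-CoA and fatty acid synthase (FASN) extends to palmitate, with NADPH supplied in part by malic enzyme (ME1). ELOVL6 lengthens palmitate to stearate, and SCD puts the first double bond into stearate to give oleate, the main monounsaturated fatty acid of pork fat. GPAM joins the first fatty acid to glycerol 3-phosphate, and SREBF1 encodes a transcription factor that switches on most of these genes after insulin and feeding. In the pig most of this synthesis takes place in fat tissue, and a piece of muscle also holds fat cells. In such bulk tissue, fewer cells of a type and less RNA per cell cannot be told apart.

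The pieces read as skeletal muscle. The 15 muscle fibre markers tested had a summed signal of 666627 to 1052916 in the Korean breed and 897068 to 1292879 in Yorkshires. The 8 adipocyte markers tested summed to 4131 to 10299 in the Korean breed and 4950 to 8818 in Yorkshires. Adiponectin (ADIPOQ), a hormone secreted by fat cells, had signals of 87.2 to 162.0 in the Korean breed and 117.7 to 508.1 in Yorkshires, where the 95th percentile of the negative control probe sets was 91.5. A pair of technical measures differed between arrays in both breeds. Hybridisation controls were bright on animals 1 and 3 of each breed and dim on animals 2 and 4. The 3' to 5' ratio of housekeeping transcripts, which is higher where RNA is less intact, was highest in Korean native pig 1 and Yorkshire 3. On the log2 scale it was 3.37 and 3.07 there, against 0.88 to 1.74 on the other arrays.

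SCD, the desaturase, varied more between animals than almost any other transcript. Its only probe set had signals of 8733, 1312, 336.1 and 1947 in Korean native pigs 1 to 4, against 5332, 9194, 6428 and 1170 in Yorkshire pigs 1 to 4. Korean native pig 1 and Yorkshire 1, 2 and 3 were high, the other 4 arrays were low, and the breeds overlapped. Across all animals the highest signal was 27.4 times the lowest. The SD within breeds was 1.62 on the log2(signal + 32) scale, on which all tests here were run, and it exceeded that of 99.9% of the 14399 probe sets tested, whose median SD was 0.39.

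ELOVL6, the elongase that makes the substrate of SCD, was high on the same 4 arrays. Its probe set of highest mean signal read 3388, 175.1, 502.3 and 770.0 in Korean native pigs 1 to 4, against 2672, 2696, 2809 and 518.4 in Yorkshire pigs 1 to 4. The values thus formed 2 sets of 4 animals, with none between 770.0 and 2672. The other 3 ELOVL6 probe sets were also highest on those 4 arrays, and the 6 correlations among the 4 ELOVL6 probe sets ranged from 0.63 to 0.96. The SD within breeds of the brightest of them was 1.45 on the log2 scale, above 99.7% of probe sets.

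FASN, the synthase itself, followed a similar order with a smaller range. Its brightest probe set had signals of 1336, 388.0, 233.4 and 984.8 in Korean native pigs 1 to 4, against 892.2, 1272, 1762 and 421.2 in Yorkshire pigs 1 to 4. Korean native pigs 2 and 3 and Yorkshire 4 were low, as for SCD, while Korean native pig 4 stood with the high animals. The highest signal was 7.55 times the lowest. The other 3 FASN probe sets averaged 84.0 to 113.3, near the negative controls, and did not follow the brightest (r of -0.20 to 0.31).

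**Figure D1:**
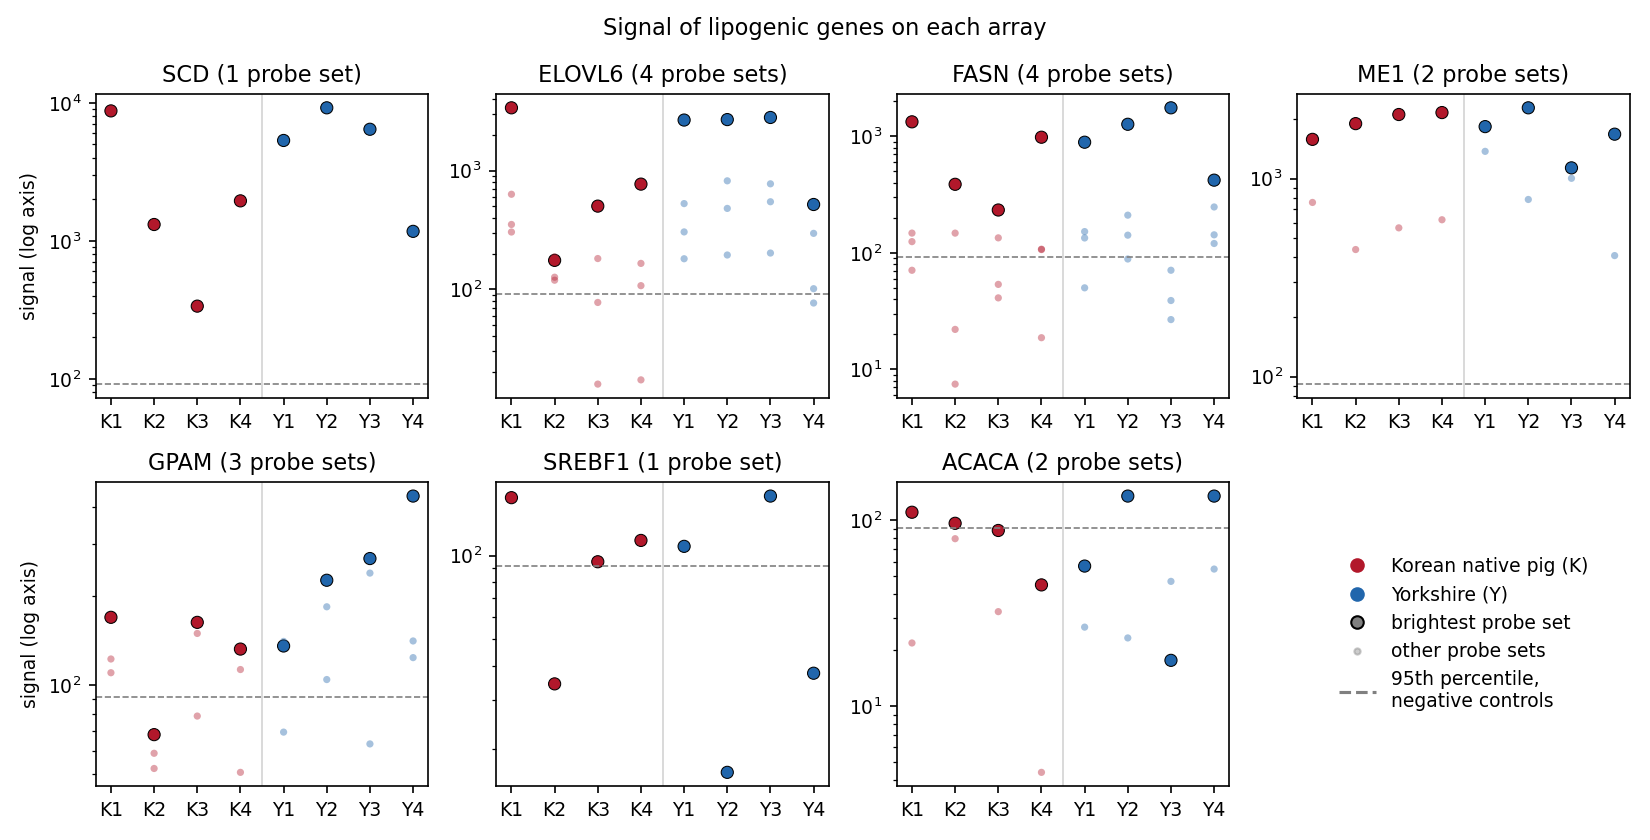
Signal (log axis) of each probe set of the 7 lipogenic genes on the 8 arrays, Korean native pigs (K1 to K4, red) left and Yorkshire pigs (Y1 to Y4, blue) right. Large outlined points are the probe set of highest mean signal, small pale points the other probe sets, and the dashed line the 95th percentile of the negative controls. SCD and all ELOVL6 probe sets are highest in Korean native pig 1 and Yorkshire 1, 2 and 3, while the brightest ME1 probe set lies between 1135 and 2283 in all animals.

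ME1, the cytosolic malic enzyme, was read by a pair of probe sets that disagreed. The brighter had signals of 1581, 1899, 2112 and 2160 in Korean native pigs 1 to 4, against 1834, 2283, 1135 and 1680 in Yorkshire pigs 1 to 4, a range of 2.01-fold. The other had 758.7, 438.5, 564.4 and 620.2 in Korean native pigs 1 to 4, against 1375, 785.5, 1005 and 408.7 in Yorkshire pigs 1 to 4. Only this second probe set was highest on the 4 arrays where SCD and ELOVL6 were high, and the correlation between the pair was -0.28.

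GPAM, the mitochondrial acyltransferase, was dim and followed another order. Its brightest probe set had signals of 169.8, 68.1, 163.3 and 132.6 in Korean native pigs 1 to 4, against 135.8, 226.7, 268.5 and 436.8 in Yorkshire pigs 1 to 4. Yorkshire 4, low for SCD, ELOVL6 and FASN, was here the highest animal. The remaining GPAM probe sets averaged 102.7 and 122.8, with values below the negative control mark of 91.5 on 4 and 2 arrays.

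SREBF1 and ACACA could not be followed on this array. The single SREBF1 probe set had signals of 162.2, 34.3, 95.1 and 113.6 in Korean native pigs 1 to 4, against 108.1, 16.4, 164.4 and 37.5 in Yorkshire pigs 1 to 4, so 3 arrays lay below 91.5. The 2 ACACA probe sets averaged 85.6 and 36.2 and lay below that mark on 4 and 8 arrays. These 3 probe sets, with 1 of GPAM and 2 of FASN, fell among the dimmest 40% and were left out of the tests. The tests thus covered 11 probe sets of 5 genes: SCD, ELOVL6, FASN, ME1 and GPAM. At levels this low a change in the transcript may not be detectable.

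SCD and FASN moved together over the 8 animals, mainly between high and low animals. The genes were chosen in part on their breed difference and spread in these arrays, so p-values between them are not free of that choice. SCD had no signal between 1947 and 5332. Among its 4 highest animals FASN did not follow its order, since Yorkshire 3 had the most FASN and Yorkshire 2 the most SCD. With each gene taken at its brightest probe set, Pearson's r between SCD and FASN was 0.93 (exact two-sided permutation p = 0.00122, adjusted p = 0.0304 over the 25 relations computed) and Spearman's rho was 0.86 (exact permutation p = 0.0107, adjusted p = 0.0893). Without Korean native pig 3 and Yorkshire 2, the animals farthest from the median of SCD, r was 0.87 (exact permutation p = 0.0306). With both breeds centred on their own mean, r was 0.92 (exact permutation p = 0.00521 within breeds, adjusted p = 0.130), and centred within bright and dim hybridisation controls it was also 0.92 (exact permutation p = 0.0104, adjusted p = 0.0868). The size of r changed little, but leaving out any single animal of the Korean breed, or Yorkshire 1, 2 or 4, ended the adjusted call, with r between 0.87 and 0.96. It was held without Yorkshire 3 (r 0.94, exact permutation, adjusted p = 0.0446), and over 16 alternatives its adjusted p ranged from 0.0242 to 0.393.

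ELOVL6 had a similar r with SCD and with FASN but did not pass the adjusted threshold. Its r with SCD was 0.84 (exact permutation p = 0.0115, adjusted p = 0.117) and its rho 0.86 (exact permutation p = 0.0107, adjusted p = 0.0893). Its r with FASN was 0.83 (exact permutation p = 0.0140, adjusted p = 0.117) and its rho 0.93 (exact permutation p = 0.00223, adjusted p = 0.0558). Because the ELOVL6 values formed 2 separate sets of 4 animals, these coefficients largely describe the step between the sets, and 4 animals are too few for a test within each. Without the animals farthest from the median r was 0.94 for SCD with ELOVL6 (exact permutation p = 0.0222) and 0.80 for ELOVL6 with FASN (exact permutation p = 0.0431). With 1 animal left out, r with SCD was 0.81 to 0.94. It passed only without Korean native pig 2, which had the lowest ELOVL6 signal (r 0.94, exact permutation, adjusted p = 0.0397). With any other animal left out the adjusted p was 0.0806 to 0.280 (exact permutation).

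GPAM and the brighter ME1 probe set did not follow SCD, ELOVL6 or FASN. For GPAM r with these 3 genes was 0.12 to 0.32 (exact permutation, adjusted p of 0.604 to 0.814), and for ME1 it was -0.42 to -0.33 (adjusted p of 0.546 to 0.604). GPAM and ME1 had an r of -0.37 with each other (exact permutation p = 0.364, adjusted p = 0.604). Their Spearman coefficients were 0.21 to 0.45 for GPAM and -0.40 to -0.07 for ME1 with the 3 genes, none with an adjusted p below 0.5. The dimmer ME1 probe set behaved otherwise, with r of 0.68 with SCD, given as a description. Of the 10 pairs among the 5 genes, 1 was thus called.

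**Figure D2:**
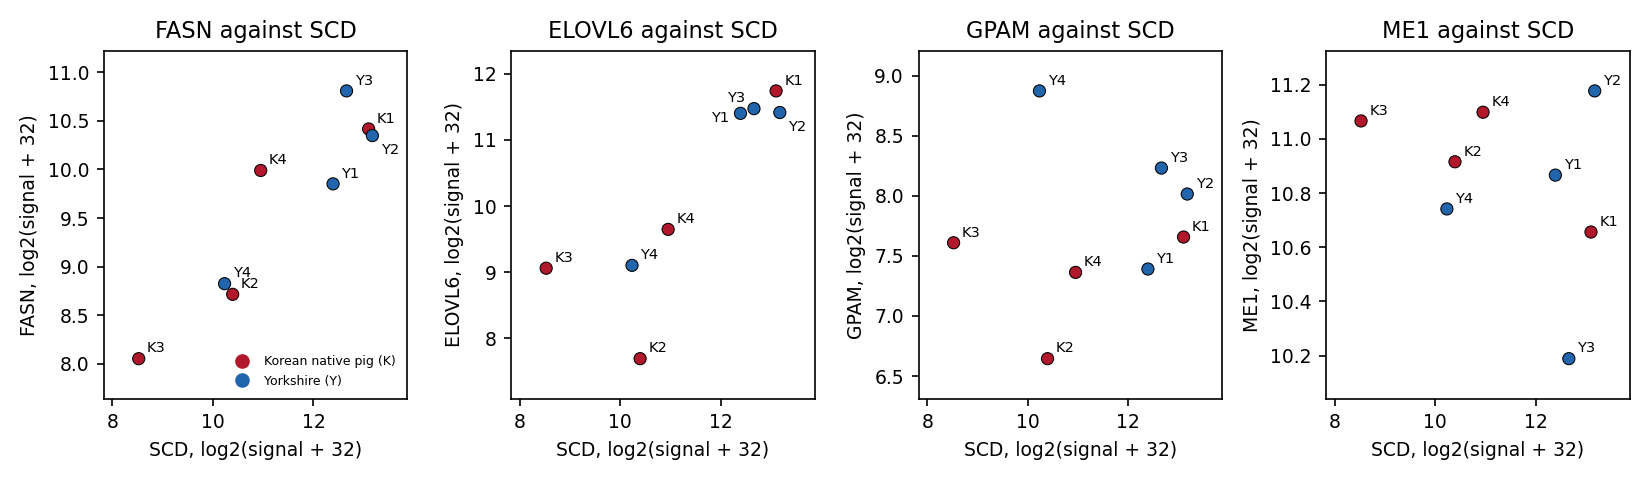
FASN, ELOVL6, GPAM and ME1 against SCD, each axis log2(signal + 32) of the brightest probe set, with 1 point per animal (Korean native pigs red, Yorkshire pigs blue). FASN is mostly higher in the 4 animals of high SCD (r 0.93), without following SCD among them, ELOVL6 sits in 2 sets of 4 animals (r 0.84), and GPAM and ME1 show no such order (r 0.12 and -0.33).

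The same order was sought in every probe set tested, by fitting each with SCD as a covariate in limma. No probe set passed after adjustment over all 14398 (0%), and 751 (5.22%) were at an unadjusted p under 0.05, of which 460 (3.19% of all) had a positive slope. The brightest FASN probe set had the lowest p of all: its log2 signal rose by 0.54 per unit of SCD (SE 0.08, limma adjusted p = 0.203). The 4 ELOVL6 probe sets ranked 4, 7, 11 and 48, with slopes of 0.54, 0.77, 0.47 and 0.53. In all, 6 of the 10 other lipogenic probe sets were at an unadjusted p under 0.05 with a positive slope: these 5 and the dimmer ME1 probe set, which ranked 384. The second FASN probe set was not among them and ranked 3382. The probe sets share genes and arrays, so they are not independent. The genes were chosen in part for their spread in these same arrays, and the fits were added after the data were seen. The count is thus a description. With a breed term in the fit the brightest FASN probe set ranked 2 (slope 0.56, SE 0.10) and the ELOVL6 probe sets 13 to 133.

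ELOVL6 as the covariate gave a similar picture. No probe set passed after adjustment (0%), 985 (6.84%) were at an unadjusted p under 0.05, and 583 of these (4.05% of all) had a positive slope. SCD ranked 4 with a slope of 0.93 (SE 0.18, limma adjusted p = 0.485), the brightest FASN probe set 17 and the dimmer ME1 probe set 60. Here too 6 of the 10 other lipogenic probe sets were at an unadjusted p under 0.05 with a positive slope, 3 of them those of ELOVL6 itself. The second FASN probe set, which ranked 11770, both GPAM probe sets and the brighter ME1 probe set were not. This count too is a description.

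By Pearson's r over the 8 animals, with 1 probe set per gene and given without a test, FASN ranked 3 and ELOVL6 35 of 5330 genes for likeness to SCD. The 5 genes most like SCD were BAG5, a co-chaperone (0.94), the ethanolamine kinase gene ETNK2 (0.93), FASN (0.93), CCDC80, which encodes a secreted protein (0.93), and CCDC167 (0.92). The 5 most like ELOVL6 were the bone morphogenetic protein receptor gene BMPR1B (0.92), the connexin gene GJA4 (0.91), PRELID1 (0.91), the lysosomal fucosidase gene FUCA1 (0.91) and SMARCA4 (0.90). Of all 5330 genes, 193, or 3.62%, had an r above 0.7 with SCD.

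**Figure D3:**
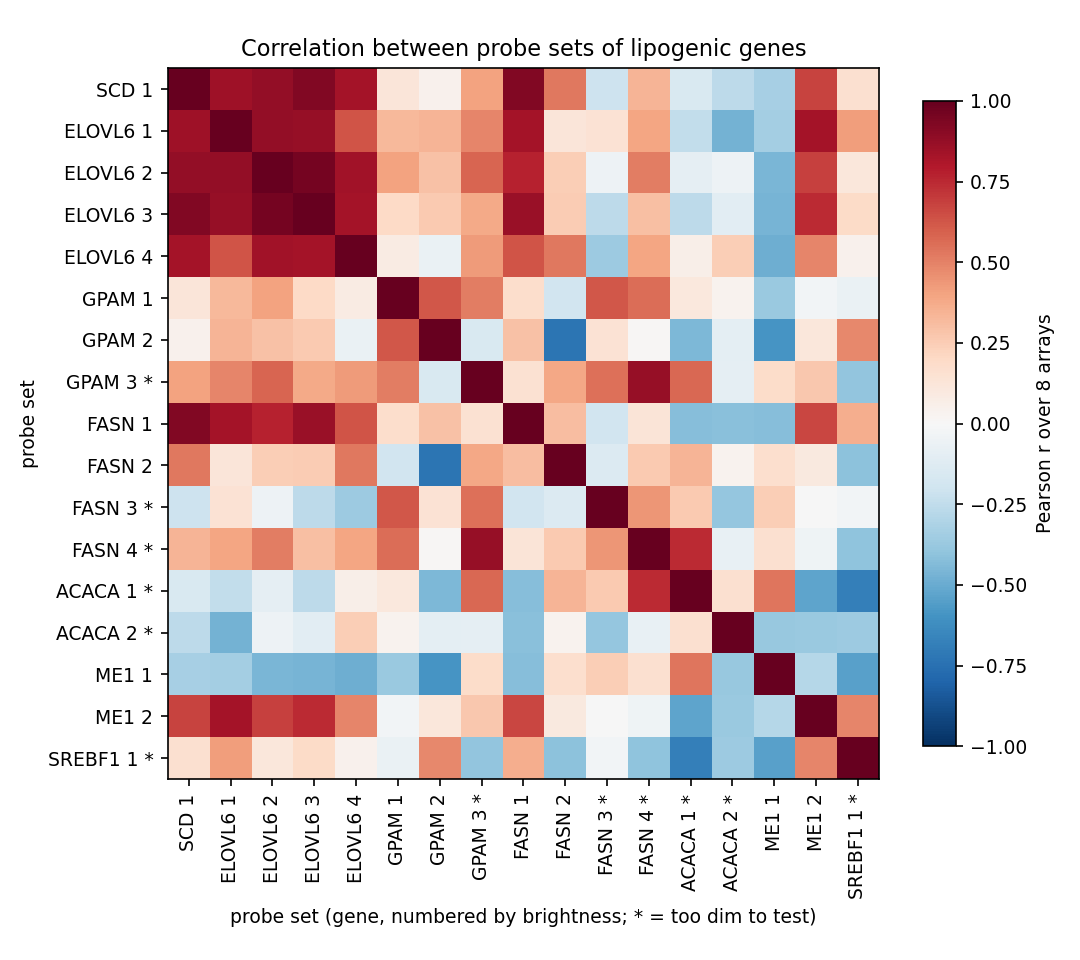
Pearson's r over the 8 arrays between the 17 probe sets of the lipogenic genes, numbered by brightness within a gene; red is positive and blue negative, and a star marks probe sets too dim to test. SCD, the 4 ELOVL6 probe sets, the brightest FASN and the dimmer ME1 probe set form the red group, while the brighter ME1 probe set is at -0.33 with SCD.

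Between breeds, 14 of the 17 lipogenic probe sets averaged lower in Korean native pigs, with wide errors and with overlapping groups at every probe set. The mean signal of SCD was 3082 ± 3825 in the Korean breed and 5531 ± 3330 in Yorkshires (SD, n = 4 each), a log2 difference of -1.37 (SE 0.83, 95% interval -3.17 to 0.43). FASN averaged 735.4 ± 514.8 in the Korean breed and 1087 ± 569.0 in Yorkshires (SD, n = 4 each), a log2 difference of -0.67 (SE 0.52, 95% interval -1.80 to 0.47). Both breeds thus held animals at either end of the range. ELOVL6 averaged 1209 ± 1473 in the Korean breed and 2174 ± 1105 in Yorkshires (SD, n = 4 each), a log2 difference of -1.31 (SE 0.74, 95% interval -2.94 to 0.31). GPAM averaged 133.4 ± 46.5 in the Korean breed and 266.9 ± 126.1 in Yorkshires (SD, n = 4 each), a log2 difference of -0.81 (SE 0.36, 95% interval -1.59 to -0.03), while its second probe set was at -0.17. ME1 differed in sign between its probe sets, with 0.19 (SE 0.22) at the brighter and -0.47 (SE 0.32) at the dimmer probe set. Without Yorkshire 3 the brighter was at 0.01.

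Of the 11 lipogenic probe sets tested, 10 had a difference below 0, with a median of -0.81. Over all 14399, 49.3% were below 0 and the median was 0.00 (0.00472). The genes were chosen in part on this difference and the probe sets share genes and arrays, so the count is a description. None of the 17 had groups that did not overlap, beside 2.56% of all probe sets tested. None of the 11 passed the adjusted threshold in limma, beside 0% of all. Of all probe sets tested, 570 (3.96%) were at an unadjusted p under 0.05. Among the 11, the unadjusted intervals of the brightest GPAM and the second ELOVL6 probe set excluded 0. Single animals moved these differences widely. Leaving out Korean native pig 3 gave -0.63 for SCD and -0.25 for FASN, and leaving out Korean native pig 1 gave -2.16 and -1.04. For ELOVL6 it was -0.70 without Korean native pig 2 and -2.05 when Korean native pig 1 was left out. On the arrays whose hybridisation controls were bright, only animals 1 and 3 of each breed, it was -1.71 for SCD, -1.04 for ELOVL6, -1.10 for FASN and -0.18 for GPAM. On the dim arrays, only animals 2 and 4 of each breed, it was -1.03, -1.59, -0.23 and -1.44 for the same genes.

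**Figure D4:**
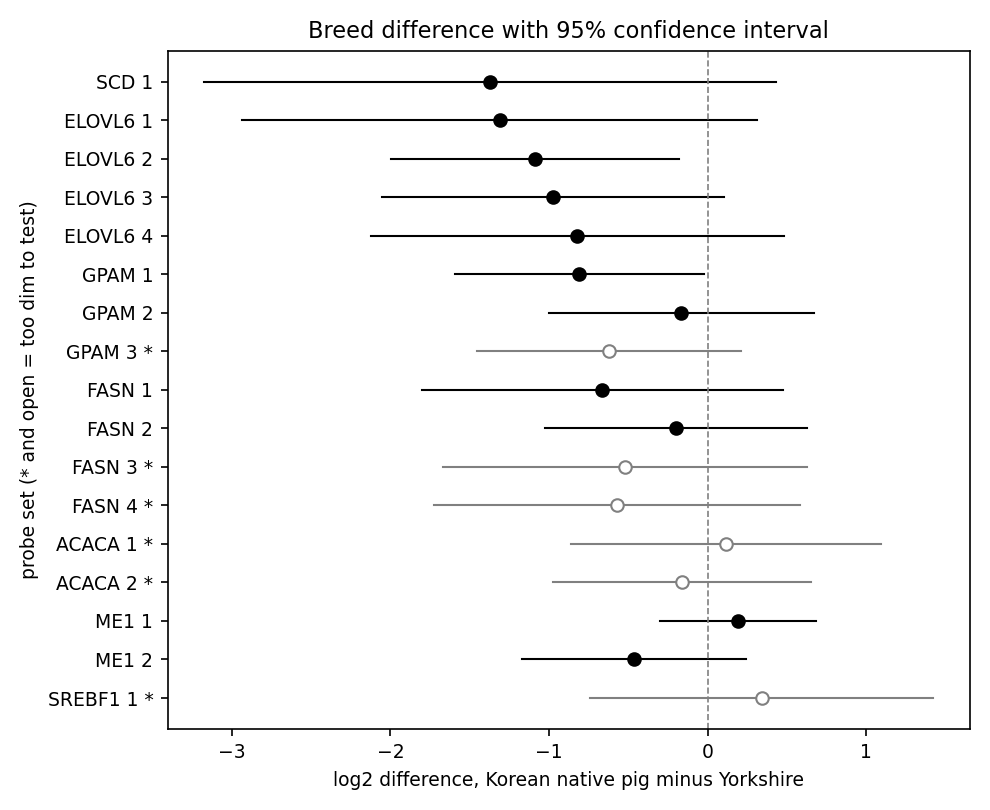
Log2 difference (Korean native pig minus Yorkshire) of each lipogenic probe set with its 95% confidence interval from limma; filled points were tested and open grey points were too dim. The point of SCD is at -1.37 with an interval of -3.17 to 0.43, and 14 of the 17 points lie below 0.

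Markers of other cell types were set beside these patterns. Over the 7 connective tissue markers tested, 5 had an r above 0.7 with SCD, with a median of 0.76, beside 3.62% and a median of 0.03 over all genes. They included decorin (DCN, 0.88), the matrix proteoglycan lumican (LUM, 0.87) and fibrillin (FBN1, 0.86), while the collagen gene COL3A1 was at -0.54 and COL1A2 at 0.30. LUM had signals of 3127, 2126, 511.1 and 2537 in Korean native pigs 1 to 4, against 3021, 3409, 2618 and 2029 in Yorkshire pigs 1 to 4, lowest in the animal with the least SCD.

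The mean level of the 7 connective tissue markers was then set against each lipogenic gene. This was done because their r with SCD had been seen, so the coefficients are a description with no test. Over the 8 animals r was 0.97 with FASN, 0.89 with SCD, 0.79 with ELOVL6, 0.26 with GPAM and -0.45 with ME1. Spearman's rho was 0.83 with FASN, 0.79 with SCD and 0.74 with ELOVL6. Without the 2 animals farthest from the median of each gene r was 0.90 for FASN, 0.77 for SCD and 0.71 for ELOVL6.

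Centred within breeds r was 0.99 for FASN, 0.87 for SCD and 0.73 for ELOVL6. With 1 animal left out it was 0.79 to 0.93 for SCD, lowest without Korean native pig 3. The level was -0.19 ± 0.37 in the Korean breed and 0.19 ± 0.29 in Yorkshires (SD, n = 4 each; exact two-sided permutation p = 0.143). Between breeds all 7 markers had a log2 difference below 0, with a median of -0.34 and none passing (limma adjusted p = 0.999). The matrix protein gene DPT was at -0.66 and FBN1 at -0.52. DPT had an r of 0.76 with SCD. The part of connective tissue content in the covariation of the lipogenic genes was not tested.

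Adipocyte markers were examined in the same way. Of the 17 adipocyte marker names listed, 8 had a tested probe set, of which none is one of the lipogenic genes. Their mean level was -0.11 ± 0.31 in the Korean breed and 0.11 ± 0.26 in Yorkshires (SD, n = 4 each), a difference of -0.21 (exact two-sided permutation p = 0.4, where 0.0286 is the smallest possible). Without Korean native pig 2 the difference was -0.06. Its r was 0.74 with ELOVL6 (exact permutation p = 0.0290, adjusted p = 0.145; rho 0.71, exact permutation p = 0.0576), 0.60 with GPAM (p = 0.111 by exact permutation), 0.57 with FASN (p = 0.141), 0.45 with SCD (p = 0.269) and -0.28 with ME1 (p = 0.487). None passed the adjusted threshold. Leaving out the 2 animals farthest from the median of each gene moved these coefficients both ways. The r was then 0.59 with ELOVL6 (exact permutation p = 0.251), 0.97 with GPAM (exact permutation p = 0.00972), 0.76 with FASN (exact permutation p = 0.0569), 0.69 with SCD (exact permutation p = 0.115) and -0.11 with ME1 (exact permutation p = 0.835). With 1 animal left out the r with GPAM ran from 0.20 to 0.99. It passed only at 0.99, without Yorkshire 4, the animal of highest GPAM (exact permutation, adjusted p = 0.0149).

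Among single adipocyte markers the fatty acid binding protein FABP4 had an r of 0.72 with SCD and CIDEA, a lipid droplet protein, 0.66. FABP4 had signals of 3100, 1450, 1659 and 3472 in Korean native pigs 1 to 4, against 2548, 3548, 5728 and 2183 in Yorkshire pigs 1 to 4. The gluconeogenic enzyme PCK1 was at 0.30, ADIPOQ at 0.16 and the complement factor CFD at 0.01. Resistin (RETN) was at -0.03, leptin (LEP) at -0.20 and the adrenergic receptor ADRB3 at -0.31. The median of the 8 was 0.09. With FASN and ELOVL6, r was 0.91 and 0.77 for FABP4 and 0.76 and 0.83 for CIDEA. For the other markers it was -0.33 to 0.46 with FASN and 0.03 to 0.28 with ELOVL6, all without a test. Apart from FABP4 and CFD, the markers had breed means of 108.4 to 242.7, against the negative control mark of 91.5. The mean level weights all 8 equally. In the breed comparison CIDEA had a log2 difference of -0.79, LEP -0.64, ADIPOQ -0.58, FABP4 -0.53 and CFD 0.70, none passing (limma adjusted p = 0.999).

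**Figure D5:**
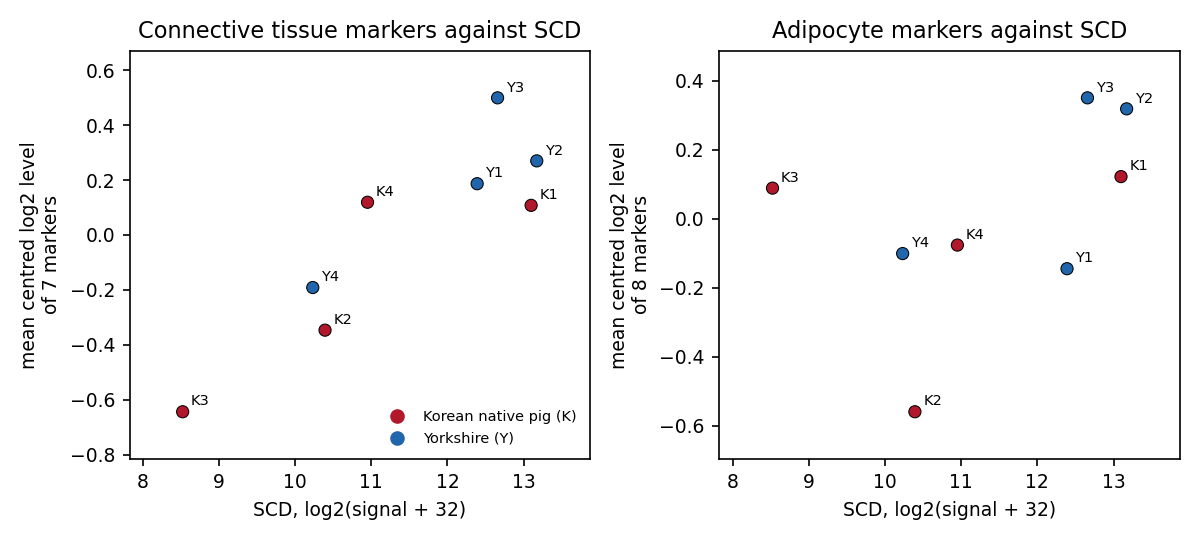
Mean centred log2 level of 7 connective tissue markers (left) and 8 adipocyte markers (right) against SCD, log2(signal + 32), with 1 point per animal (Korean native pigs red, Yorkshire pigs blue). The connective tissue level rises with SCD (r 0.89), and for the adipocyte level, which weights bright and dim markers equally, r is 0.45. Without Korean native pig 3 and Yorkshire 2 these coefficients are 0.77 and 0.69.

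The technical measures also moved with some of the genes, without passing after adjustment. The 3' to 5' ratio had an r of 0.52 with SCD (exact permutation p = 0.208), 0.66 with ELOVL6 (p = 0.0800 by exact permutation), 0.59 with FASN (p = 0.129) and -0.77 with ME1 (exact permutation p = 0.0257, adjusted p = 0.145; rho -0.64, exact permutation p = 0.0962). Without the 2 animals farthest from the median of SCD its r with SCD was 0.92 (exact permutation p = 0.0111), and for ME1, without the 2 farthest from its median, it was -0.61 (exact permutation p = 0.201). Without the arrays of highest ratio, Korean native pig 1 and Yorkshire 3, r was 0.92 between SCD and FASN, where the call was lost (exact permutation, adjusted p = 0.208), 0.77 between SCD and ELOVL6 and 0.76 between ELOVL6 and FASN. Korean native pig 1 and Yorkshire 3 were both among the animals of high SCD and ELOVL6. The part of RNA integrity in these relations was not tested. For the hybridisation controls r was 0.22 with SCD, 0.52 with ELOVL6, 0.22 with FASN and -0.58 with ME1 (exact permutation p of 0.596, 0.191, 0.607 and 0.124). Without the 2 animals farthest from the median of each gene it was 0.90 with SCD (exact permutation p = 0.0736), 0.81 with ELOVL6 (p = 0.05 by exact permutation), 0.63 with FASN (p = 0.174) and -0.22 with ME1 (p = 0.631). With 1 animal left out it ran from 0.07 to 0.70 for SCD.

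The neighbours of these enzymes in lipid synthesis were described by lists of genes. No gene of any list below passed in the breed comparison (limma adjusted p = 0.999 for each), so the values are differences with no call. Among 5 desaturases and elongases, 4 had an r above 0 with SCD, with a median of 0.49. HSD17B12 and HACD3, which act in the elongation cycle after enzymes such as ELOVL6, were at 0.71 and 0.68. SCD5, a second desaturase, was at 0.49, while ELOVL3 was at 0.39 and ELOVL1 at -0.40. In the breed comparison 4 of the 5 were below 0, with a median of -0.28 and the elongase ELOVL3 at -0.72.

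Among 13 genes of acetyl-CoA and NADPH supply, 9 had an r above 0 with SCD, with a median of 0.14. IDH1, the cytosolic isocitrate dehydrogenase that also yields NADPH, was at 0.87. Its signals were 926.5, 442.2, 199.4 and 410.5 in Korean native pigs 1 to 4, against 461.8, 495.8, 815.5 and 269.7 in Yorkshire pigs 1 to 4, again lowest in Korean native pig 3 and Yorkshire 4. The pentose phosphate enzymes TKT, TALDO1 and PGD were at 0.67, 0.67 and 0.62, and the mitochondrial enzymes CS and ME2 at -0.34 and -0.28. Of these 13, 10 were below 0 between breeds, with a median of -0.13, SLC25A1, the citrate exporter of mitochondria, at -0.47 and MDH1, the cytosolic malate dehydrogenase, at -0.31.

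Among 14 genes of glycerolipid assembly, 7 were above 0 with a median r of -0.05 with SCD. The acyl-CoA synthetase ACSL3 was at 0.72 and DGAT2, which makes triglyceride, at 0.69, while the phosphatidate phosphatase LPIN1 was at -0.73 and GPD1L at -0.60. Between breeds 8 of the 14 were below 0, with a median of -0.14, AGPAT5 at 0.56 and ACSL3 at -0.35. Of 6 genes of lipolysis and lipid droplets, 2 were above 0 with a median r of -0.23. The lipases MGLL and LPL were at 0.56 and 0.55, the droplet proteins ABHD5 and PLIN2 at -0.54 and -0.42. Their median breed difference was -0.17, with 4 of 6 below 0, LPL at -0.46 and the triglyceride lipase PNPLA2 at 0.34.

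Among 12 regulators of lipogenesis, 5 were above 0 with a median r of -0.01. INSIG1, which holds SREBP proteins in the endoplasmic reticulum and is itself one of their targets, was at 0.58, and NFYC at 0.41. The transcription factors CEBPB and USF2 were at -0.78 and -0.51, and SREBF2 at 0.11. Their median breed difference was -0.01, with NR1H3, the liver X receptor alpha, at -0.43 and CEBPB at 0.28.

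Of 8 genes of cholesterol synthesis and uptake, 7 were above 0 with a median r of 0.34. The desaturase SC5D was at 0.83 and HMGCS1 at 0.57, while SQLE was at 0.29 and FDFT1 at -0.41. Between breeds 5 of the 8 were below 0, with a median of -0.12, FDFT1 at 0.58 and HMGCS1 at -0.24.

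Muscle fibres and the remaining cell types were described by their markers as well. The median r with SCD was 0.06 over 15 muscle fibre markers, with MYH2 at 0.44 and TNNT1 at 0.23, TNNC2 at -0.13 and desmin (DES) at -0.72. It was -0.09 over 8 endothelial markers, with CLDN5 at 0.74, PECAM1 at 0.35, ESAM at -0.25 and CDH5 at -0.27. It was -0.03 over 3 macrophage and lymphocyte markers (CD163 0.12, AIF1 -0.03, CD3E -0.23) and 0.14 over 3 red cell markers (ALAS2 0.55, HBB 0.14, HBM -0.03). Between breeds 14 of the 15 muscle fibre markers were below 0, with a median of -0.30, TNNC2 at -0.42 and MYL1 at -0.33, and the endothelial genes EGFL7 and ENG were at -0.62 and -0.64. AIF1 was at 0.71 and CD3E at 0.11, ALAS2 at -0.47 and HBM at 0.28. Among all 5330 other genes 52.7% had an r above 0 with SCD. Between breeds 50.4% of all 5331 genes tested had a difference below 0.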

How the data were processed

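The deposited values are linear intensities, 1 per probe set and array. The submitters' processing notes name GCOS 1.3, with summarisation and scaling target not given in the sources used here. Trimmed by 2% at each end, signals averaged 500.1 to 500.2 on every array, so the authors' intensity values were scaled per array. Gene symbols came from GEO's platform annotation, which can be old: 10099 probe sets had 1 symbol, 198 several and 13826 none. Of those with 1 symbol 9989 matched the Sscrofa11.1 gene table by gene number, and 0 symbols changed.

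Values were transformed to log2(signal + 32), which understates changes of dim probe sets. The 124 controls and the dimmest 40% by mean log2 signal, below about 98.6, were left out, leaving 14399 probe sets and 5331 genes. The lower mark of 91.5 is the 95th percentile of 23 negative control probe sets. Breed differences (Korean native pig minus Yorkshire) and slopes on SCD were obtained from limma 3.58.1 (R 4.3.3; linear models, moderated with an intensity trend), with Benjamini-Hochberg adjustment over all probe sets. Precision is limited by having 4 arrays a breed, with a median SE of 0.28 for breed differences.

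Covariation used each gene's tested probe set of highest mean signal and all 40320 pairings of the 8 arrays, with adjustment over 25 relations: 10 pairs, and 5 genes against adipocyte marker level, 3' to 5' ratio and hybridisation controls. A marker level is the mean over markers of log2 signal minus each probe set's mean. Replicates are biological, per the labels. The genes and lists were chosen with earlier results of these data known. Named were all members, the 5 genes most like SCD and ELOVL6, all adipocyte markers, and from each list the 2 genes of highest and lowest r with SCD and the 2 of lowest p between breeds; genes beyond these were named after their values were seen. The slope fits and the connective tissue marker level were added after seeing the data. The limma fits and the permutation test of r were tested on simulated data. Other pseudocounts, quantile normalisation, no filter, blocks and left-out arrays were tried as alternatives.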

Additional observations from a re-analysis of the deposited data

Results flagged for a closer look

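Of 40 sets of 4 animals examined, 3 held a value far from the others. Chance alone gives about 1 in 20, and the genes were chosen in part for their spread between animals, so nothing is read from this count. The gap of the farthest animal to its neighbour is given as a share of the whole range of its breed, on the log2 scale. All 3 are probe sets of 1 gene, ELOVL6. At its brightest probe set Yorkshire 4 lay below the other Yorkshire pigs with a share of 0.970, and at its dimmest probe set the same animal did so with a share of 0.876. At its second probe set Korean native pig 1 lay above the other Korean native pigs with a share of 0.911. Their signals were 518.4, 76.5 and 632.3, in that order.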

How the results depend on the processing

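The count of probe sets that differed between breeds was 0 under every alternative run but the replicate block, where 1 passed (limma adjusted p = 0.00943), with SCD, ELOVL6, FASN, GPAM and ME1 at an adjusted p of 0.992. The numbers are not known to pair animals: deviations of same-numbered animals correlated at -0.04, 0.31, 0.10 and 0.05. The breed differences of SCD, ELOVL6, FASN, GPAM and ME1 kept their sign in all 85 refits, but that of ME1 was 0.01 without Yorkshire 3. The single called pair of genes, SCD with FASN, became 0 with Spearman's rho, with centring within breeds or within hybridisation control classes, with the next probe set and without the arrays of highest 3' to 5' ratio, and 0 to 1 pairs were called when 1 animal was left out. With the next probe set r between SCD and FASN was 0.53. Centred on replicate number as a replicate block, r was 0.98 for SCD with FASN and 0.92 for SCD with ELOVL6, with no test. Relations with the adipocyte level were 0 to 1 with 1 animal left out, against 0. Relations with the connective tissue level are not counted, because that list was taken up after its values were seen. Centred within hybridisation control classes, r of that level was 0.97 with FASN, 0.89 with SCD, 0.87 with ELOVL6, 0.26 with GPAM and -0.46 with ME1.

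Uncalled coefficients changed sign as follows. With 1 animal left out, r ranged from -0.0579 to 0.476 for SCD with GPAM, from -0.205 to 0.771 for ELOVL6 with GPAM and from -0.104 to 0.604 for GPAM with FASN, the highest values being those without Yorkshire 4. Without Korean native pig 2, r was -0.0579 for SCD with GPAM, -0.20 for ELOVL6 with GPAM and -0.10 for GPAM with FASN. Centred within breeds it was -0.24 for SCD with GPAM and -0.0882 for GPAM with FASN. Without the arrays of highest ratio ME1 was at 0.20 with SCD, 0.30 with ELOVL6 and 0.37 with FASN. The next probe set was then taken for every gene but SCD, which had only 1. ME1 was there at 0.68 with SCD, 0.68 with ELOVL6, 0.12 with GPAM and 0.10 with FASN, and GPAM with FASN at -0.73. Against the brightest probe sets of FASN and ELOVL6, the dimmer ME1 probe set was at 0.67 and 0.83. Without the 2 animals farthest from the median ELOVL6 with GPAM was at -0.39. The cause of these changes was not tested. Probe sets near the negative controls, those of GPAM, SREBF1, ACACA and all but the brightest of FASN, limit what can be read.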

Other observations

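The genes most opposed to SCD over the 8 animals, listed after their values were seen and without a test, were SMYD2, a lysine methyltransferase (r -0.95), SLC25A20, which carries acylcarnitines into mitochondria for oxidation (-0.93), CLK1 (-0.91), DRG1 (-0.91) and MRPL38 (-0.90). SLC25A20 had signals of 989.0, 1400, 1947 and 1158 in Korean native pigs 1 to 4, against 893.3, 983.2, 1057 and 1281 in Yorkshire pigs 1 to 4. It was highest in Korean native pig 3, the animal with the lowest SCD signal, and lowest in Yorkshire 1, 1 of the 4 with high SCD. With both breeds centred its r with SCD was -0.92.

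A pair of probe sets too dim to test, 1 of GPAM and 1 of FASN, had an r of 0.87 with each other although their means, 102.7 and 84.0, lay near the negative control mark of 91.5. They lay below that mark on 4 and 5 arrays. The pair was picked from all pairs of lipogenic probe sets after the values were seen, so nothing is read from it.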
